A study of Mus musculus with 12 samples.

Results

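The genes described here encode the extracellular matrix and the integrins, the cell-surface receptors that bind it. They were taken from the protein-coding genes of the authors' YTHDF1 table by name: collagens, laminins and integrins by the form of the symbol, and 12 listed glycoproteins and proteoglycans, Fn1, Tnxb, Tnr, Tnc, Fbn1, Fbn2, Hspg2, Agrn, Vcan, Bcan, Ncan and Acan. The rule found 75 of the 55573 genes in the count table. A further 16 symbols of these forms, with mean normalized counts of 0.485 to 8.55, were in the count table and not in the authors' YTHDF1 table. These were 35 collagens, 10 laminins, 11 integrin alpha and 5 integrin beta subunits, the 12 listed genes, and 2 genes that carry an integrin name only, Itgb1bp1 and Itgb3bp, whose products bind an integrin tail or were named for doing so. Of the 75, 73 passed the minimum mean normalized count of 10 and were tested among 16820 genes. Col9a2 and Itga11 had mean normalized counts of 9.87 and 9.86 and were not tested, and just inside the limit Col28a1 and Col6a5 both had 10.7.

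The YTHDF proteins 1, 2 and 3 are readers of N6-methyladenosine (m6A), a mark of mRNA that the cell most often places on the adenosine of a GGAC sequence, and they act in the cytoplasm. RNA immunoprecipitation (RIP) with an antibody against each endogenous protein was used to ask which RNAs it binds in wild-type primary hippocampal neurons of newborn C57BL/6 mice after 14 days in culture. There were 4 groups of 3 replicates: Input and the RIPs of YTHDF1, YTHDF2 and YTHDF3. Hippocampi of a litter were pooled, and Ara-C was part of the study's culture protocol to hold back glial growth. The study describes a lysate pooled from several wells and divided among the RIPs of a replicate, with Input taken from it before RIP. Input libraries deviated together with the same-numbered libraries of the YTHDF3 RIP, and not with the same-numbered ones of the YTHDF1 or YTHDF2 RIP. Input replicate 3 did deviate together with replicate 2 of the YTHDF1 and YTHDF2 RIPs. There r, the correlation of the deviations from the group means, was 0.47 and 0.57. The 3 comparisons with Input share their Input libraries, and no RIP with a control antibody was analysed here. Enrichment therefore means a higher level in the RIP than in Input, relative to the genes tested. Levels were scaled with edgeR's TMM factors and are not raw shares of a library.

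In brain tissue the extracellular matrix is poor in fibrillar collagen and rich in proteoglycans. Neurons and glia secrete lecticans (Acan, Bcan, Ncan, Vcan), which hyaluronan, link proteins and tenascins assemble into a loose mesh and, around some neurons, into perineuronal nets. Laminins, type IV collagens, perlecan (Hspg2) and agrin (Agrn) build basement membranes, which in the intact brain lie along vessels and the pial surface. Fibrillar collagens are known mainly as products of fibroblasts and meningeal cells. Integrins are pairs of an alpha and a beta subunit that tie this matrix to the actin skeleton through talin, vinculin and kinases.

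The libraries held between 6020072 and 38909592 counts. The 75 genes, tested or not, took between 0.123% and 0.614% of a library. Their summed level in CPM (counts per 1000000 counts of the library, scaled with edgeR's TMM factors) was 2253 ± 893 in Input. The RIPs of YTHDF1, YTHDF2 and YTHDF3 held 5026 ± 965, 4023 ± 358 and 3447 ± 1372 CPM (SD, n = 3 each). Raw shares, without TMM scaling, had another order. They were 0.337%, 0.397% and 0.392% in the YTHDF1 RIP and 0.428%, 0.488% and 0.354% in the YTHDF2 RIP. In the YTHDF3 RIP they were 0.219%, 0.494% and 0.614%. Per length, the most abundant of these transcripts in Input were Ncan at 122 ± 63.7 CPM per kilobase of exon (RPKM), Bcan at 43.9 ± 32.2, Itgb1 at 17.7 ± 5.02 and Agrn at 15.1 ± 6.31. The highest collagen was Col4a1 at 8.94 ± 4.69 RPKM, and Col1a1 was at 2.54 ± 2.28. Neuronal markers were present in every library, with a sum over 8 genes of 790 to 3022 CPM. The astrocyte list of 8 genes summed to 1041 to 3558 CPM, so these cultures also held glial RNA. The lists of 6 microglial, 6 endothelial and 6 mural markers were low throughout, with highest sums of 6.54, 22.7 and 27.3 CPM.

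Replicate 1 of Input and replicate 1 of the YTHDF3 RIP stood apart from the other libraries, and many matrix genes moved with them. The 5 markers of oligodendrocyte precursors summed to 43.7 CPM in Input replicate 1 against 400.3 and 358.7 in replicates 2 and 3, and to 45.8 CPM in YTHDF3 RIP replicate 1 against 572 and 499. They summed to 377 to 1465 CPM in the YTHDF1 RIP and 425 to 579 CPM in the YTHDF2 RIP, so no library of these groups was as low as Input replicate 1. Pdgfra, a receptor of oligodendrocyte precursors and fibroblasts, was at 0.533, 79.6 and 97.04 CPM in Input and at 0.893, 177 and 212 CPM in the YTHDF3 RIP, but at 117, 95.1 and 244 CPM in the YTHDF1 RIP and 155, 155 and 201 CPM in the YTHDF2 RIP. The 7 fibroblast markers, which include Pdgfra, summed to 6.17 CPM in Input replicate 1 and 4.66 CPM in YTHDF3 RIP replicate 1, against 91.8 to 216 CPM in the other libraries of these groups. The astrocyte markers summed to 1041 CPM in Input replicate 1 against 3029 and 3558, and to 1215 CPM in YTHDF3 RIP replicate 1 against 2725 and 2664. The neuronal markers were highest in replicate 1, at 3013, 2267 and 1482 CPM in Input and 3022, 2093 and 1194 CPM in the YTHDF3 RIP. Gad1, an enzyme of inhibitory neurons, was at 253, 195 and 73.2 CPM in Input, highest in replicate 1. Fewer cells of a type and less RNA per cell cannot be told apart in these lysates, and the part of this difference in the results below was not tested.

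Among the tested matrix and integrin genes, Input replicate 1 was the lowest Input for 53 of 73, beside 36.9% of all genes, and at least 2-fold below both other Inputs for 38 of 73, beside 7.44%. Col1a1, the main chain of type I collagen, was at 0.838, 30.6 and 18.4 CPM in Input and 1.16, 56.2 and 29.4 CPM in the YTHDF3 RIP. Bcan, a lectican of glia, was at 28.6, 270 and 237 CPM in Input and 26.9, 217 and 257 CPM in the YTHDF3 RIP. In both genes replicate 1 lay far below the other replicates of these groups. YTHDF3 RIP replicate 1 was also the lowest of its group for 50 of the 53. The opposite order was seen for 12 genes, beside 36.4% of all genes, which were highest in Input replicate 1: Acan, Col12a1, Col15a1, Col19a1, Col22a1, Col25a1, Col26a1, Itga3, Itga4, Itgb3, Lama3 and Lamb3.

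**Figure D1:**
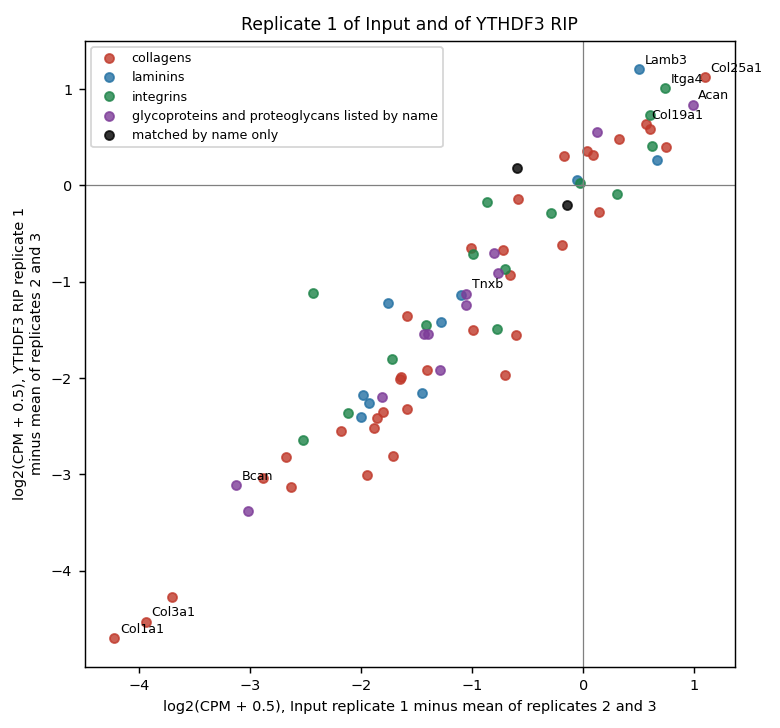
Each point is 1 of the 73 tested genes; the x axis is log2(CPM + 0.5) in Input replicate 1 minus the mean of Input replicates 2 and 3, and the y axis is the same difference for the YTHDF3 RIP. Most points lie in the lower left, fibrillar collagens such as Col1a1 lowest, and Col25a1, Acan, Itga4 and Lamb3 lie in the upper right.

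Transcripts of the matrix and integrin genes were, for the most part, at a higher level in each RIP than in Input, and the share that passed the test was near that of genes at large. Enrichment was called where the log2 fold change was 0.32 or more and the adjusted p 0.05 or less, depletion where the change was as large downwards (edgeR quasi-likelihood test, Benjamini-Hochberg over all 16820 genes). In the YTHDF1 RIP, 25 of 73 were enriched, where 27.5% of all genes were, and 1 was depleted, where 26.1% were. In the YTHDF2 RIP, 16 were enriched and 1 depleted, beside 16.1% and 19.3% of all genes. With YTHDF3, 8 were enriched and 2 depleted, beside 16.7% and 23.2%. Among protein-coding genes alone, the enriched shares were 29.9%, 18.0% and 19.3% and the depleted ones 23.5%, 17.0% and 19.6%. The median log2 fold change over the 73, in the order YTHDF1, YTHDF2 and YTHDF3, was 1.08, 1.04 and 0.67, where the median over all genes tested was 0.02, 0.02 and 0.05. The number with every RIP replicate above every Input replicate was 30, 37 and 9, beside 28.0%, 25.5% and 26.8% of all genes, and 2 genes lay wholly below Input in each RIP, beside 28.3%, 27.7% and 29.3%. The share enriched thus lay a little above the background for YTHDF1 and YTHDF2 and below it for YTHDF3, and depletion was rarer than among genes at large. Both depleted genes carry an integrin name only. In this unpaired fit of all 12 libraries, edgeR called none of the 71 tested matrix and integrin genes proper depleted.

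These counts shifted with the libraries that stood apart. Without Input replicate 1, 20, 8 and 4 genes were enriched, beside 24.6%, 11.6% and 13.5% of all genes. Without both that library and YTHDF3 RIP replicate 1, 26, 18 and 9 were, beside 24.5%, 11.8% and 10.6%, and 1, 1 and 2 were depleted, beside 24.3%, 15.7% and 19.4%. In the latter fit, 24 of the 25, 14 of the 16 and 6 of the 8 genes remained enriched, and the medians were 0.75, 0.75 and 0.69. Same-numbered Input and YTHDF3 RIP libraries deviated together, and in a fit of these groups with the replicate number as a block 50 of 73 were enriched in the YTHDF3 RIP and 3 depleted, beside 36.5% and 32.3% of all genes. All 8 genes of the unpaired test were among the 50, and the depleted ones were Itgb1bp1, Itgb3bp and Col26a1, a collagen at -0.34. Also among the 50, without a call for YTHDF3 in the unpaired test, were Fn1, Tnc, Vcan, Fbn2 and Hspg2. The same held for Col4a1, Col6a3, Col7a1, Col19a1, Col25a1, Lama5, Itga6 and Itgb1.

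**Figure D2:**
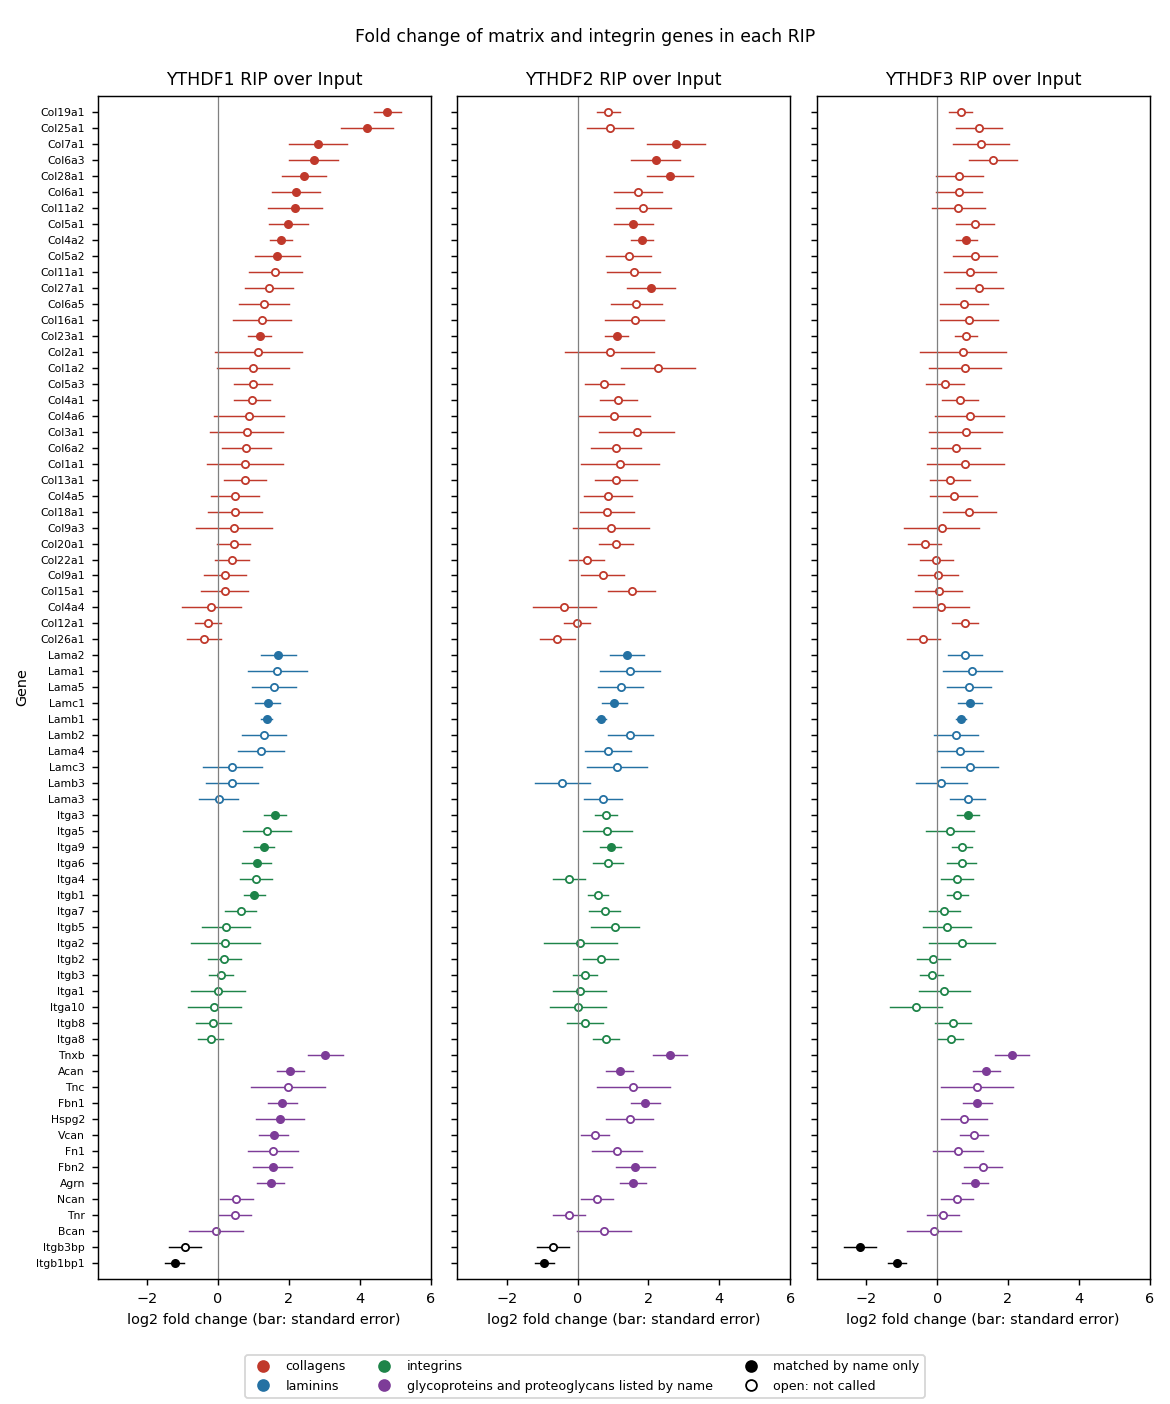
Points are log2 fold changes of the 73 tested genes in each RIP over Input with their standard errors (bars), filled where the gene was called and coloured by family. Most points lie right of 0 in all panels; Col19a1 and Col25a1 stand far to the right in the YTHDF1 RIP alone, and Itgb1bp1 and Itgb3bp lie left of 0.

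Across the RIPs, 7 genes were enriched in all 3, namely Acan, Agrn, Col4a2, Fbn1, Lamb1, Lamc1 and Tnxb, beside 8.63% of all genes, and Itgb1bp1 was depleted in all 3, beside 14.0%. A further 8 passed the test with YTHDF1 and YTHDF2, Col5a1, Col6a3, Col7a1, Col23a1, Col28a1, Fbn2, Itga9 and Lama2, and Itga3 with YTHDF1 and YTHDF3. The 9 genes that passed with YTHDF1 and not with the others were Col5a2, Col6a1, Col11a2, Col19a1, Col25a1, Hspg2, Itga6, Itgb1 and Vcan, and Col27a1 passed with YTHDF2 alone. In all, 26 of 73 were enriched in at least 1 RIP, beside 34.3% of all genes, and the other 47 in none. A pass in 1 RIP and not in another does not show a difference between them. In the direct tests, where a call needed a 2-fold difference or more, 3 of 73 were higher with YTHDF1 than with YTHDF2 (11.4% of all genes) and 3 higher with YTHDF1 than with YTHDF3 (11.0%). Lower calls numbered 0 by edgeR in either comparison (6.13% and 3.62%), where 8 and 10 genes had an unadjusted p of at most 0.05 in 1 or the other direction. None differed between the YTHDF2 and YTHDF3 RIP by edgeR, beside 3.97% of all genes higher and 1.17% lower, and 5 of 73 had an unadjusted p of at most 0.05 in that comparison.

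Col19a1 and Col25a1 were the collagens with the highest enrichment, reached with the YTHDF1 antibody and not with the others in direct tests. Col19a1 (ENSMUSG00000026141, chr1:24261890-24587472, minus strand, GRCm38) encodes the chain of type XIX collagen, a rare collagen of the fibril-associated class that neurons are known to make. It was at 17.4, 14.1 and 9.22 CPM in Input and at 263, 379 and 483 CPM in the YTHDF1 RIP. With YTHDF2 it was at 29.0, 18.8 and 26.6 CPM and with YTHDF3 at 28.5, 22.3 and 14.0 CPM. Every YTHDF1 library lay far above all 9 others. The log2 fold change over Input was 4.78 ± 0.37 with YTHDF1 (SE, adjusted p = 5.0e-06 by edgeR's quasi-likelihood test). It was 0.87 ± 0.33 with YTHDF2 and 0.66 ± 0.32 with YTHDF3 (edgeR adjusted p = 0.0601 and 0.127). Col19a1 did pass with YTHDF2 without Input and YTHDF3 RIP replicate 1, and with YTHDF3 in the paired fit. It ranked as number 31 of the 13376 protein-coding genes tested in the YTHDF1 RIP. In the direct tests the YTHDF1 RIP exceeded that of YTHDF2 by 3.92 ± 0.36 on the log2 scale (edgeR adjusted p = 3.44e-05) and that of YTHDF3 by 4.12 ± 0.36 (edgeR adjusted p = 3.69e-05).

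Col25a1 (ENSMUSG00000058897, chr3:130131501-130599877, plus strand) encodes a transmembrane collagen of neurons, known as the precursor of a component of amyloid plaques. Its level was 55.2, 38.9 and 12.1 CPM in Input and 526, 427 and 1002 CPM in the YTHDF1 RIP. With YTHDF2 it was 84.6, 25.0 and 91.1 CPM and with YTHDF3 126, 85.7 and 29.0 CPM. The YTHDF1 libraries did not overlap with any other, whereas the YTHDF2 and YTHDF3 libraries overlapped with Input. The log2 fold change over Input was 4.20 ± 0.73 in the YTHDF1 RIP (edgeR adjusted p = 0.000624), against 0.92 ± 0.65 and 1.18 ± 0.65 in the other RIPs (edgeR adjusted p = 0.299 and 0.178). In the paired fit of the YTHDF3 RIP, Col25a1 passed. Directly compared, the YTHDF1 RIP exceeded that of YTHDF2 by 3.28 ± 0.70 and that of YTHDF3 by 3.02 ± 0.69 (edgeR adjusted p = 0.00501 and 0.00961). Input and YTHDF3 replicate 1 were the highest of their groups for both collagens, and without these libraries the log2 fold changes with YTHDF1 were 5.004 and 4.67.

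**Figure D3:**
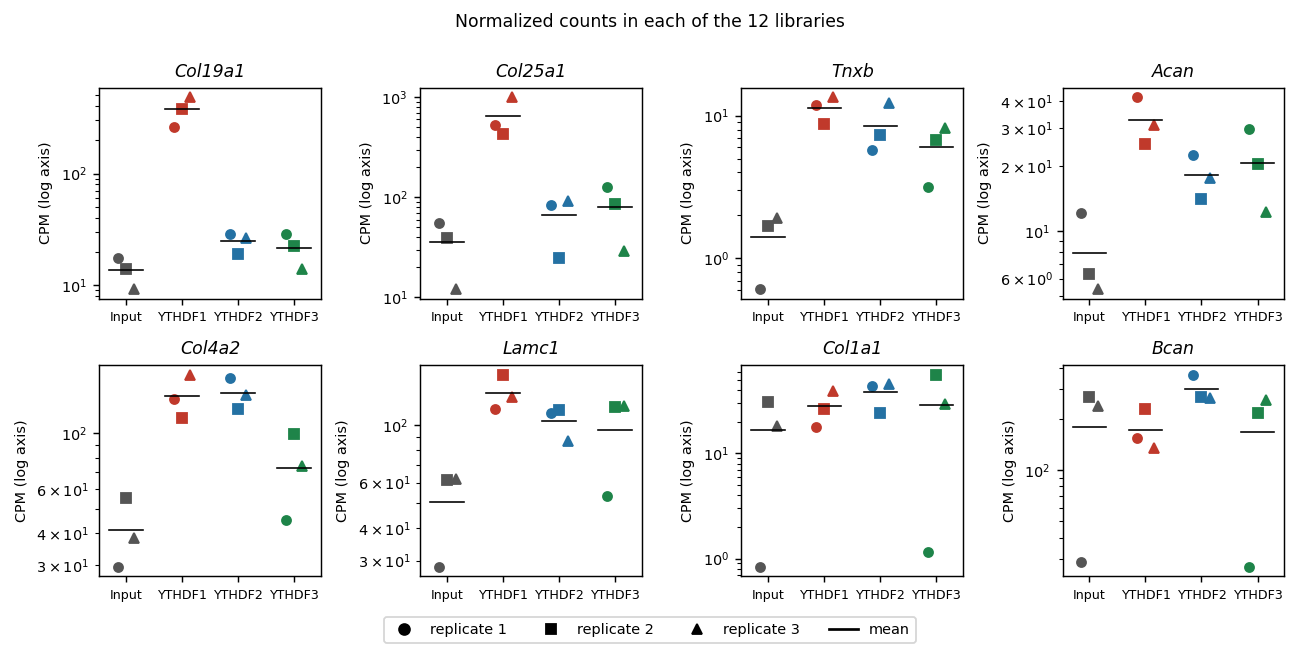
CPM (log axes that differ between panels) of 8 genes in the 12 libraries; symbols are replicates and lines are group means. Col19a1 and Col25a1 are far higher in the YTHDF1 RIP than in the other groups. Tnxb, Acan, Col4a2 and Lamc1 are higher than Input in every RIP on average, and Col1a1 and Bcan drop in replicate 1 of Input and of the YTHDF3 RIP.

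The motif GGACA, its variant GGACC and the further variant GGACT, forms of the sequence on which m6A is most often found, were counted on the sense strand of the longest annotated coding sequence of each gene (GENCODE M21, GRCm38). All 75 genes and 13283 of the 13376 protein-coding genes tested had such a sequence. Collagen coding sequences held a median of 10.3 matches per kb over 35 genes, laminins 4.77 over 10, integrins 5.02 over 16 and the 12 listed genes 5.06, where the median over all tested protein-coding genes was 4.20. Most of the collagen surplus was GGACC, at a median of 6.12 per kb against 1.30 over all protein-coding genes. Of the 898 GGACC in the collagens, 84.6% began at the first base of a codon, so that GGA (glycine) was followed by a proline codon, where 21.5% of all 37846 did so. The other matches in collagens were GGACA, at a median of 2.27 per kb, and GGACT, at 1.71 per kb. Of consecutive windows of 30 coding bases, 23.1% held a match in collagens and 10.6% in all protein-coding genes.

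Each of the following windows of 30 coding bases starts at a codon and is the first with the most matches in its gene, with the matching bases in capitals. They are shown so that the codon-aligned GGACC of Col19a1 and Col25a1 can be read beside the densest such window of other matrix genes. Those windows held 2 or 3 matches, as the windows of Col19a1 and Col25a1 did.
Col19a1, exon 16, chr1:24374595-24374624, minus strand: aaaacaGGACCcccaggaaatccaGGACCt
Col25a1, exon 25, chr3:130560822-130560851, plus strand: ccccctGGACCtcctGGACCtcaaGGACTa
Col7a1, exon 31, chr9:108963103-108963132, plus strand: GGACTgcaaGGACAggctGGACCtcctggc
Col6a3, exon 5, chr1:90816405-90816434, minus strand: atccagaggttggaaattGGACAGGACCtg
Tnxb, exon 4, chr17:34678632-34678661, plus strand: cagcgaGGACTggcgcctGGACAGGACTac
Acan, exon 12, chr7:79098366-79098395, plus strand: gcctctggagtagaGGACCtcagtGGACTt
Fn1, exon 6, chr1:71645671-71645700, minus strand: agatgcaacgatcaGGACAcccGGACAtcc
Matches were as dense in collagens that did not pass the test as in many that did: the median was 11.3 per kb in the 11 enriched in the YTHDF1 RIP, with a range of 5.28 to 13.5, and 9.86 per kb in the other 23, with a range of 4.57 to 16.2. Col19a1 and Col25a1 held 10.3 and 13.5 per kb. A match is a description of the sequence and does not show that the base is methylated or bound.

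Enriched collagens came from several structural classes. Of 34 collagens tested, YTHDF1 enriched 11, YTHDF2 7 and YTHDF3 1 (32.4%, 20.6% and 2.94%, beside 27.5%, 16.1% and 16.7% of all genes), with median log2 fold changes of 0.99, 1.13 and 0.74 over the 34. Of the 10 fibrillar collagens, Col5a1, Col5a2 and Col11a2 passed with YTHDF1, and Col5a1 and Col27a1 with YTHDF2, and all 10 had positive log2 fold changes in each RIP. Of the 4 beaded-filament chains of type VI collagen, Col6a1 and Col6a3 passed with YTHDF1. Col6a3, the long chain, was at 0.762, 3.52 and 4.29 CPM in Input, 12.4, 14.9 and 27.4 CPM in the YTHDF1 RIP, 13.3, 10.3 and 15.3 CPM in the YTHDF2 RIP and 1.86, 13.2 and 9.99 CPM in the YTHDF3 RIP. Its YTHDF1 and YTHDF2 libraries all lay above Input, and its log2 fold changes were 2.698 ± 0.69, 2.20 ± 0.69 and 1.56 ± 0.68 (edgeR adjusted p = 0.00676, 0.0288 and 0.0874). Col7a1, the anchoring-fibril collagen of skin, was at 0.457, 3.15 and 2.14 CPM in Input, 9.71, 11.2 and 19.3 CPM in the YTHDF1 RIP, 13.6, 9.42 and 16.5 CPM in the YTHDF2 RIP and 0.505, 8.33 and 4.76 CPM in the YTHDF3 RIP. It rose by 2.81 ± 0.82 with YTHDF1 and 2.78 ± 0.82 with YTHDF2 on the log2 scale (edgeR adjusted p = 0.0128 and 0.022), and by 2.33 and 2.30 without the libraries that stood apart. With YTHDF2, the calls of Col7a1 and Col6a3 were each lost without any 1 of 4 libraries, Input replicate 1 among them, at adjusted p of up to 0.0659 and 0.0793 (edgeR). With the trend on transcript length removed, Col6a3 did not pass with YTHDF1 or YTHDF2, at 1.65 and 1.78 (edgeR adjusted p = 0.0538 and 0.0599), nor Col7a1 with YTHDF1, at 1.94 (edgeR adjusted p = 0.0545). Col28a1, at 0.107 to 0.366 CPM in Input, was enriched with YTHDF1 and YTHDF2 (log2 fold change 2.42 ± 0.63 and 2.60 ± 0.65), on no more than 5 counts in an Input library. Col27a1, a fibrillar collagen of cartilage, was enriched with YTHDF2 alone at 2.08 ± 0.68 (edgeR adjusted p = 0.0334), a call lost without any 1 of the 6 libraries compared (edgeR adjusted p of up to 0.106) and with the length trend removed, at 1.65.

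The main fibrillar collagens of connective tissue gave no call in any RIP. Col1a1 was at 17.8, 26.7 and 39.7 CPM in the YTHDF1 RIP and 44.0, 24.5 and 46.2 CPM in the YTHDF2 RIP, and its log2 fold changes over Input were 0.76 ± 1.08, 1.20 ± 1.09 and 0.80 ± 1.08. Col1a2 had 0.99 ± 1.02 with YTHDF1 and 2.27 ± 1.05 with YTHDF2, and Col3a1 had 0.81 ± 1.04 and 1.67 ± 1.06. In all of these Input replicate 1 lay at least 2-fold below the other Inputs. Without the libraries that stood apart, the values with YTHDF1 were 0.20, 0.44 and 0.25 for Col1a1, Col1a2 and Col3a1, and Col1a2 passed with YTHDF2 at 1.72 (edgeR adjusted p = 0.0192). In the paired fit of the YTHDF3 RIP, all of these passed at 0.88, 0.91 and 0.87 (edgeR adjusted p = 1.38e-06, 3.29e-06 and 1.65e-06).

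Several basement-membrane genes were enriched with every antibody. The genes for the type IV chains Col4a1 (chr8:11198423-11312826) and Col4a2 (chr8:11312805-11449287) lie head to head on opposite strands. Col4a2 was at 29.5, 55.3 and 38.5 CPM in Input, 136, 115 and 171 CPM in the YTHDF1 RIP, 166, 125 and 141 CPM in the YTHDF2 RIP and 45.2, 99.2 and 74.1 CPM in the YTHDF3 RIP. The YTHDF1 and YTHDF2 libraries lay wholly above Input, and the YTHDF3 libraries overlapped with it. Col4a2 was enriched by 1.77 ± 0.31, 1.81 ± 0.31 and 0.83 ± 0.30 on the log2 scale (edgeR adjusted p = 0.000624, 0.00133 and 0.0481), and the call with YTHDF3 was lost without any 1 of 8 libraries, Input replicate 1 among them (up to 0.218), and with the length trend removed, at 0.53. Its partner Col4a1 was at 27.1, 93.4 and 79.7 CPM in Input, with log2 fold changes of 0.96 ± 0.52, 1.15 ± 0.52 and 0.65 ± 0.51 that did not pass (edgeR adjusted p = 0.139, 0.106 and 0.345). The difference between the partners was not tested.

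Of the 10 laminins, 3 were enriched with YTHDF1 and YTHDF2 (Lama2, Lamb1 and Lamc1) and 2 with YTHDF3 (Lamb1 and Lamc1), beside 27.5%, 16.1% and 16.7% of all genes, and the medians over the 10 were 1.34, 1.07 and 0.82. Lamb1 and Lamc1 encode the beta and gamma chains shared by the commonest laminin trimers. Lamb1 was even within each group, at 48.7, 53.4 and 47.7 CPM in Input, 142, 138 and 110 CPM in the YTHDF1 RIP, 83.8, 77.0 and 76.6 CPM in the YTHDF2 RIP and 81.6, 82.8 and 73.8 CPM in the YTHDF3 RIP. Every RIP library lay above every Input, and the log2 fold changes were 1.38 ± 0.15, 0.66 ± 0.15 and 0.67 ± 0.15 (edgeR adjusted p = 3.36e-05, 0.00567 and 0.00418). With the trend on transcript length removed these fell to 0.57, 0.29 and 0.17, and the calls with YTHDF2 and YTHDF3 were lost (edgeR adjusted p = 0.224 and 0.492). Lamc1 was at 28.4, 61.5 and 61.7 CPM in Input, 115, 156 and 128 CPM in the YTHDF1 RIP, 111, 114 and 86.5 CPM in the YTHDF2 RIP and 53.2, 117 and 118 CPM in the YTHDF3 RIP. Its log2 fold changes were 1.40 ± 0.35, 1.04 ± 0.34 and 0.93 ± 0.34 (edgeR adjusted p = 0.00535, 0.0349 and 0.0492). Those with YTHDF2 and YTHDF3 were lost without any 1 of 3 and of 8 libraries, Input replicate 1 and YTHDF2 RIP replicates 1 and 2 in both cases (edgeR adjusted p of up to 0.105 and 0.161), and all 3 calls were lost with the length trend removed, at 0.75, 0.72 and 0.52. Lama5, an alpha chain of most adult basement membranes, had 1.58 ± 0.63 in the YTHDF1 RIP and did not pass (edgeR adjusted p = 0.0525). Lamb2, the beta chain of synaptic laminins, was at 7.54, 28.7 and 31.8 CPM in Input and had 1.30 ± 0.63, 1.49 ± 0.63 and 0.54 ± 0.62, with no call, and in the paired fit of the YTHDF3 RIP it passed at 0.55 (edgeR adjusted p = 0.000291).

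Agrin, which organizes the neuromuscular synapse and is also made in the brain, was enriched in all 3 RIPs. Agrn was at 95.1, 119 and 206 CPM in Input, 295, 511 and 373 CPM in the YTHDF1 RIP, 345, 550 and 345 CPM in the YTHDF2 RIP and 184, 269 and 426 CPM in the YTHDF3 RIP. Its log2 fold changes were 1.49 ± 0.38, 1.56 ± 0.38 and 1.07 ± 0.37 (edgeR adjusted p = 0.00619, 0.00828 and 0.0398), the last lost without any 1 of 5 libraries, Input replicate 1 among them (up to 0.174). With the trend on transcript length removed, the calls with YTHDF1 and YTHDF3 were lost, at 0.72 and 0.60 (edgeR adjusted p = 0.133 and 0.242). Perlecan (Hspg2), the other basement-membrane proteoglycan, was enriched in the YTHDF1 RIP at 1.75 ± 0.67 (edgeR adjusted p = 0.0443), a call lost without any 1 of 9 libraries, Input replicate 1 among them (up to 0.196), and at 0.50 with the length trend removed.

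Of the other glycoproteins, Tnxb, a tenascin of connective tissue, gave the largest increase in the YTHDF3 RIP of any of the 73. It was at 0.609, 1.69 and 1.93 CPM in Input, 11.9, 8.75 and 13.5 CPM in the YTHDF1 RIP, 5.71, 7.33 and 12.3 CPM in the YTHDF2 RIP and 3.14, 6.70 and 8.20 CPM in the YTHDF3 RIP. Tnxb was above all Inputs in all 9 RIP libraries, and its log2 fold changes were 3.03 ± 0.49, 2.61 ± 0.49 and 2.11 ± 0.48 (edgeR adjusted p = 0.000362, 0.00208 and 0.00444). It had no more than 23 counts in an Input library. The fibrillins, which form microfibrils, were both enriched with YTHDF1 and YTHDF2. Fbn1 had log2 fold changes of 1.81 ± 0.41, 1.92 ± 0.42 and 1.13 ± 0.41 (edgeR adjusted p = 0.00329, 0.00464 and 0.0448), and Fbn2 had 1.54 ± 0.54, 1.63 ± 0.54 and 1.29 ± 0.54 (edgeR adjusted p = 0.0309, 0.036 and 0.0752). Without Input replicate 1, Fbn1 did not pass with YTHDF3, nor Fbn2 with YTHDF1 or YTHDF2, and over single libraries left out their adjusted p reached 0.154, 0.144 and 0.111 (edgeR). With the length trend removed, Fbn1 passed with YTHDF2 alone and was at 0.76 with YTHDF1 and 0.54 with YTHDF3, and Fbn2 did not pass, at 0.40 with YTHDF1 and 1.20 with YTHDF2. Fibronectin (Fn1), tenascin-C (Tnc) and tenascin-R (Tnr) gave no call in the unpaired test, with YTHDF1 values of 1.56 ± 0.72, 1.97 ± 1.04 and 0.47 ± 0.46. In the paired fit of the YTHDF3 RIP, Fn1 and Tnc passed and Tnr did not. Tnc, a tenascin of glia, ranged from 6.09 to 81.5 CPM within Input alone.

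The 4 lecticans differed in their calls. Acan (aggrecan), the core of perineuronal nets, was at 12.04, 6.30 and 5.36 CPM in Input, 41.6, 25.2 and 31.0 CPM in the YTHDF1 RIP, 22.5, 14.1 and 17.6 CPM in the YTHDF2 RIP and 29.5, 20.4 and 12.2 CPM in the YTHDF3 RIP. Every RIP library lay above every Input, and the log2 fold changes were 2.04 ± 0.38, 1.19 ± 0.38 and 1.38 ± 0.38 (edgeR adjusted p = 0.00101, 0.0307 and 0.0124). Without the libraries that stood apart they were 2.48, 1.63 and 1.48. The call with YTHDF2 was lost without Input replicate 2 or 3 or YTHDF2 RIP replicate 1 or 3, and that with YTHDF3 without Input replicate 2 or YTHDF3 RIP replicate 1 (edgeR adjusted p of up to 0.114 and 0.0539). Both were also lost with the length trend removed, at 0.86 and 0.996. Versican (Vcan), a lectican of the developing matrix, was at 26.1, 32.4 and 59.4 CPM in Input and 77.6, 169 and 103 CPM in the YTHDF1 RIP, with a log2 fold change of 1.57 ± 0.40 (edgeR adjusted p = 0.00628), and it did not pass with YTHDF2 at 0.50 ± 0.39 or with YTHDF3 at 1.04 ± 0.39. With the length trend removed, Vcan was at 0.34 with YTHDF1 and did not pass (edgeR adjusted p = 0.527). Neurocan (Ncan), the most abundant of the 73 genes per length in Input, had log2 fold changes of 0.52 ± 0.46, 0.55 ± 0.46 and 0.56 ± 0.46. Brevican (Bcan) had -0.05 ± 0.77, 0.74 ± 0.77 and -0.09 ± 0.77. Neither Ncan nor Bcan passed in any RIP, and in the paired fit of the YTHDF3 RIP Ncan passed at 0.61 (edgeR adjusted p = 3.28e-05) and Bcan did not.

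Of 10 integrin alpha subunits tested, Itga3, Itga6 and Itga9 were enriched with YTHDF1, Itga9 with YTHDF2 and Itga3 with YTHDF3. These shares of 30%, 10% and 10% stood beside 27.5%, 16.1% and 16.7% of all genes. Of 5 beta subunits, Itgb1 was enriched with YTHDF1 (20%, beside the same 27.5%). The medians over the alpha subunits were 0.86, 0.78 and 0.47. Itgb1 encodes the beta subunit that pairs with most of these alpha subunits. It was at 50.7, 74.4 and 91.5 CPM in Input, 105, 184 and 153 CPM in the YTHDF1 RIP, 113, 110 and 99.2 CPM in the YTHDF2 RIP and 68.8, 116 and 136 CPM in the YTHDF3 RIP. The log2 fold changes were 1.03 ± 0.29, 0.57 ± 0.29 and 0.57 ± 0.29 (edgeR adjusted p = 0.0118, 0.15 and 0.146). Without YTHDF1 RIP replicate 2, the first was 0.77 and did not pass (edgeR adjusted p = 0.0534). Itga3, a laminin receptor subunit, was at 21.0, 13.9 and 13.0 CPM in Input and 44.2, 33.5 and 68.8 CPM in the YTHDF1 RIP. It was enriched by 1.61 ± 0.31 there and by 0.86 ± 0.31 with YTHDF3 (edgeR adjusted p = 0.00123 and 0.043), the latter call lost without Input and YTHDF3 RIP replicate 1 and without any 1 of 5 libraries (up to 0.131), and with the length trend removed, at 0.64. Itga6, also of laminin receptors, had 1.09 ± 0.42 in the YTHDF1 RIP (edgeR adjusted p = 0.0468), a call lost without any 1 of 10 libraries, Input replicate 1 among them (up to 0.132), and with the length trend removed, at 0.37.

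Itga4, a subunit of receptors for fibronectin and VCAM1, was the only integrin with a direct difference between RIPs. It was at 23.2, 19.1 and 8.36 CPM in Input, 30.4, 24.5 and 52.4 CPM in the YTHDF1 RIP, 15.1, 10.02 and 17.7 CPM in the YTHDF2 RIP and 37.8, 23.0 and 14.0 CPM in the YTHDF3 RIP. The YTHDF1 libraries lay above the YTHDF2 libraries, by 1.32 ± 0.45 on the log2 scale (edgeR adjusted p = 0.0492). Neither RIP passed against Input, at 1.08 ± 0.44 and -0.24 ± 0.45. The difference was lost under 6 of 12 alternative settings and on leaving out any 1 of 7 libraries, each YTHDF2 RIP library among them (edgeR adjusted p of up to 0.23).

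The genes with an integrin name only were lower in the RIPs. Itgb1bp1, which encodes a regulator that binds the tail of integrin beta 1, was at 8.46, 12.4 and 13.7 CPM in Input, 4.97, 5.83 and 4.07 CPM in the YTHDF1 RIP, 5.32, 8.07 and 4.71 CPM in the YTHDF2 RIP and 5.71, 4.96 and 4.99 CPM in the YTHDF3 RIP. Every RIP library lay below every Input, and its log2 fold changes were -1.22 ± 0.26, -0.94 ± 0.27 and -1.14 ± 0.26 (edgeR adjusted p = 0.00244, 0.0181 and 0.00469), that with YTHDF2 lost without any 1 of 4 libraries (up to 0.0724). Itgb3bp, which encodes a centromere protein, was at 2.21, 2.64 and 2.36 CPM in Input and 0.427, 0.370 and 0.761 CPM in the YTHDF3 RIP, with a log2 fold change of -2.19 ± 0.46 (edgeR adjusted p = 0.00288). Its log2 fold changes with YTHDF1 and YTHDF2, -0.93 and -0.70, did not pass. Itgb1bp1 and Itgb3bp are also among the shorter of the 73, at 3.54 and 4.63 kb of exons, where the median over all genes tested was 3.93 kb. With the length trend removed their depleted calls remained. These were at -1.14, -0.90 and -0.98 for Itgb1bp1 with YTHDF1, YTHDF2 and YTHDF3, and at -2.26 for Itgb3bp with YTHDF3.

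Matrix genes are long, and longer transcripts were higher in the RIPs at large. The 73 genes had a median exonic length of 7.97 kb, with a range of 3.05 to 18.6 kb, against 3.93 kb over all genes tested, 83.9% of which were shorter than that median. Across the 16820 genes, Spearman's rho between exonic length and log2 fold change was 0.46, 0.38 and 0.53 for YTHDF1, YTHDF2 and YTHDF3. Across the 73 it was 0.30, 0.16 and 0.50, where genes share libraries and are not independent. With the trend on length removed from each library, 11, 7 and 1 of the 73 were enriched, beside 22.4%, 13.2% and 15.5% of all genes, and the medians were 0.37, 0.74 and 0.29. Col19a1, Acan, Col25a1, Col4a2, Itga3, Lamb1 and Tnxb remained enriched with YTHDF1 under that setting and every other one that gave them a value, as did Agrn, Col28a1, Col4a2, Fbn1 and Tnxb with YTHDF2 and Tnxb with YTHDF3.

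**Figure D4:**
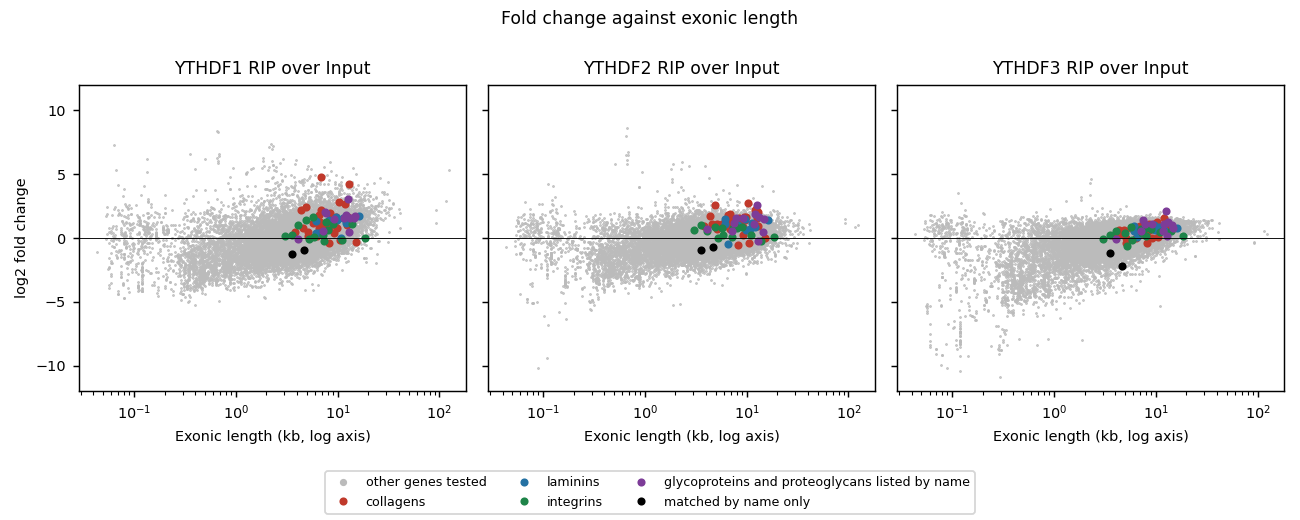
Exonic length (kb, log axis) against log2 fold change over Input for all 16820 genes tested (grey) and the 73 matrix and integrin genes (coloured by family). The coloured points lie at 3.05 to 18.6 kb, on the rising part of the grey cloud; Col19a1 and Col25a1 lie above it in the YTHDF1 RIP.

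Genes that act with the matrix were read from 7 lists with 110 entries outside the rule, 94 of them tested. Of these 94, 22 were enriched and 9 depleted with YTHDF1, 20 and 9 with YTHDF2 and 12 and 8 with YTHDF3. The enriched shares were 23.4%, 21.3% and 12.8%, beside 27.5%, 16.1% and 16.7% of all genes, and the depleted ones of all genes were 26.1%, 19.3% and 23.2%. The medians over the 94 were 0.21, 0.35 and 0.25. In the list of 19 tested genes of the integrin adhesion complex, 8, 9 and 6 were enriched (42.1%, 47.4% and 31.6%, against the same shares of all genes) and 4, 4 and 5 depleted. Among those enriched with YTHDF1 were Tln1 (talin, 1.77 ± 0.54), Ptk2 (focal adhesion kinase, 1.12 ± 0.17) and Tns3 (tensin-3, 1.96 ± 0.53). The 3 genes of the integrin-linked kinase complex, Ilk (-1.13 ± 0.22), Parva (-1.69 ± 0.26) and Lims1 (-0.90 ± 0.23), were depleted in every RIP. Among 9 tested genes of perineuronal nets and hyaluronan, 3, 2 and 2 were enriched. Has3, a hyaluronan synthase, and Reln, a large secreted glycoprotein of interneurons, were enriched with every antibody, Reln at 2.26 ± 0.31 in the YTHDF1 RIP, and both calls with YTHDF3 were lost without Input and YTHDF3 RIP replicate 1. The link protein Hapln1, at 85.3, 90.9 and 46.8 CPM in Input, was depleted in the YTHDF2 RIP at 16.1, 10.6 and 21.5 CPM (-2.20 ± 0.50) and in the YTHDF3 RIP at 24.4, 16.3 and 12.9 CPM (-2.06 ± 0.49).

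Among 26 tested matricellular and basement-membrane genes, 6, 5 and 1 were enriched (23.1%, 19.2% and 3.85%, beside 27.5%, 16.1% and 16.7% of all genes) and 1, 0 and 0 depleted by edgeR, the depleted gene being Postn (periostin, -1.15 ± 0.37 in the YTHDF1 RIP, on a mean of 25.6 normalized counts). Thbs1 (thrombospondin-1) gave the highest value in the YTHDF1 RIP, 3.73 ± 0.45, and Eln (elastin) in the YTHDF2 RIP, 4.18 ± 0.43, against 1.24 ± 0.39 for Eln in the YTHDF1 RIP. Ltbp4, a latent TGF-beta binding protein, was enriched in all 3, at 1.65 ± 0.17, 1.34 ± 0.17 and 1.00 ± 0.17. Of 12 collagen-processing genes, P4ha2, a subunit of the prolyl hydroxylase, was enriched in every RIP, at 1.23 ± 0.32, 1.97 ± 0.32 and 1.00 ± 0.31, and Loxl3 in the YTHDF2 RIP. Of 17 matrix proteases and inhibitors, 4, 2 and 1 were enriched and 3, 3 and 1 depleted. Mmp16 had the highest value with YTHDF1, 2.29 ± 0.27, and the depleted genes were Mmp24 and the inhibitors Timp2, Timp3 and Timp4. Of 10 cell-surface proteoglycans, Sdc3 was depleted with YTHDF1 and YTHDF2, at -1.06 ± 0.21 and -1.40 ± 0.22, and Gpc6 was enriched and Sdc4 depleted in the YTHDF3 RIP. Itgav, the 1 tested of 6 integrin subunits outside the naming rule, did not pass, at -0.02 ± 0.60 in the YTHDF1 RIP.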

How the data were processed

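RNA of RIP and Input was sequenced from strand-specific libraries of total RNA that carried unique molecular identifiers (UMIs). The authors trimmed reads with cutadapt 3.4, aligned them to GRCm38 with STAR 2.7.7a, removed duplicates with UMI-tools 1.1.1 and deposited raw counts per gene (featureCounts 2.0.1, Ensembl release 97, strand setting 2). Reads over several genes, or with several alignments, were counted each time, so values of overlapping or near-identical genes are uncertain. From the authors' result tables only gene names and biotypes of the YTHDF1 table were used; their means, fold changes and p-values were not.

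Genes with a mean of at least 10 counts after division by DESeq2 1.42.0 size factors were tested (16820). TMM factors over these genes and 1 quasi-likelihood model of 4 groups over 12 libraries were computed with edgeR 4.0.16 in R 4.3.3. The thresholds were those of the report, SE is the log2 fold change over the square root of F, and CPM and RPKM use TMM-scaled library sizes and exonic length. RIP folds are relative to all genes tested. By the study's description lysates were split among RIPs, and nothing says that replicates came from separate litters. The p-values therefore measure only the spread between these samples, and 3 against 3 libraries allow an exact permutation p of no less than 0.1. Same-numbered Input and YTHDF3 RIP libraries deviated together (r = 0.84, 0.54 and 0.81), and those of Input and the other RIPs did not. Steps were tested on simulated data. Alternatives were DESeq2, other scalings and filters, the replicate block, removal of a length trend (loess, span 0.3), 2-group fits and leaving out libraries.

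Named genes were the 12 listed by name, the extremes of each comparison at a mean of at least 100 counts, the highest Input level per length of each family and the genes matched by name only. Col1a1, Col1a2, Col3a1, Col27a1, Col28a1, Itga3, Itga4 and Lamb2, and of the pathway genes Has3, Loxl3, Lims1, Ilk, Ptk2, Tln1, Postn and the Timp genes, were added after values were seen. Members and lists were chosen with earlier results of these data known. Exon positions and coding sequences are from GENCODE M21 (GRCm38).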

Additional observations from a re-analysis of the deposited data

Results flagged for a closer look

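Direct tests of 1 RIP against another (edgeR quasi-likelihood test, 2-fold or more) set apart 4 of the 73 genes. Col19a1 was higher in the YTHDF1 RIP than in the YTHDF2 RIP by 3.92 (edgeR adjusted p = 3.44e-05) and than in the YTHDF3 RIP by 4.12 on the log2 scale (edgeR adjusted p = 3.69e-05). Both differences passed under all 12 other settings and without each of the 12 libraries, between 3.39 and 4.37. Col25a1 was higher in the YTHDF1 RIP by 3.28 than in the YTHDF2 RIP (edgeR adjusted p = 0.00501) and by 3.02 than in the YTHDF3 RIP (edgeR adjusted p = 0.00961), the latter lost in the 2-group fit with the replicate block.

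Itga4 was higher in the YTHDF1 RIP than in the YTHDF2 RIP by 1.32 (edgeR adjusted p = 0.0492) and Col28a1 higher in the YTHDF1 RIP than in the YTHDF3 RIP by 1.79 (edgeR adjusted p = 0.0339). Both lie close to the threshold. Col28a1 had a mean normalized count of 10.7, just inside the filter, and its difference was lost under 7 of 11 other settings, among them the one without Input and YTHDF3 RIP replicate 1.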

How the results depend on the processing

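Enriched genes numbered 25, 16 and 8 with YTHDF1, YTHDF2 and YTHDF3, where 27.5%, 16.1% and 16.7% of all genes were. With no filter on low counts they were 41, 32 and 34 (10.5%, 4.58% and 7.30% of all genes), and with DESeq2 29, 21 and 12 (27.7%, 17.6% and 20.3%). With the length trend removed they were 11, 7 and 1 (22.4%, 13.2% and 15.5%), or 2 with YTHDF3 where the replicate block was added (15.3%). The replicate block over all libraries gave 25 with YTHDF2 (15.7% of all genes). Paired fits of the groups compared, with the replicate block, gave 50 with YTHDF3 (36.5% of all genes) and 0 depleted with YTHDF2 (16.8%). With YTHDF3, library size alone gave 16 (28.7% of all genes) and TMM over protein-coding genes 3 (15.2%). A minimum mean of 50 left 1 depleted gene with YTHDF3 (24.2%). Depleted genes with YTHDF1 rose from 1 to 2 with library size alone or the length trend removed (36.5% and 24.8% of all genes). They rose to 3 with the block added to the latter (24.6%). Library size alone also moved the median of all genes to -0.38 with YTHDF1 and 0.38 with YTHDF3. Without 1 library at a time, enriched genes numbered 20 to 31, 7 to 20 and 3 to 15. The shares of all genes ran from 21.8% to 27.2%, 11.4% to 18.2% and 11.7% to 21.6%. Depleted ones numbered 1 to 2, 0 to 1 and 2 to 2, beside 22.5% to 30.3%, 14.4% to 22.9% and 17.9% to 24.3%. With YTHDF2 the enriched genes fell to 7 to 9 without Input replicate 1 or 3 or YTHDF2 RIP replicate 1 or 3. In these fits 11.5% to 12.6% of all genes were enriched. With YTHDF3 they fell to 3 without Input replicate 2, YTHDF2 RIP replicate 1 or YTHDF3 RIP replicate 2 (11.7%, 15.6% and 11.9% of all genes). They rose to 15 without YTHDF3 RIP replicate 1 (13.8%).

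Genes that differed between YTHDF1 and YTHDF2 were 5 with DESeq2, 6 with no filter and 6 in the paired fit. Over all genes, 1955 were higher and 1198 lower of 16820 with DESeq2, and 1780 and 1330 of 16820 in the paired fit. With no filter 2402 and 1274 of 44478 were. Between YTHDF1 and YTHDF3 they were 5 with library size alone, 6 with no filter and 1 in the paired fit. Over all genes, 762 were higher and 3393 lower of 16820 with library size alone, and 328 and 101 of 16820 in the paired fit. With no filter 2189 and 1174 of 44478 were. Between YTHDF2 and YTHDF3 they were 5 with no filter, 1 with the length trend removed, with or without the block, and 1 with only the groups compared. Over all genes, 1043 were higher and 769 lower of 44478 with no filter. The length trend removed gave 432 and 307 of 16820, or 358 and 227 with the block. Only the groups compared gave 874 and 428 of 16820. Without 1 library at a time, the genes that differed between YTHDF2 and YTHDF3 were 0 to 2. In these fits 114 to 953 of all 16820 genes were higher and 61 to 345 lower.

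Signs turned only for log2 fold changes over Input that gave no call in the fit of all 12 libraries. Of those with YTHDF3, Col1a1, Col1a2, Col3a1, Fn1 and Itga4 did pass in the paired fit. With YTHDF1, Bcan became 0.31 with the replicate block, 0.26 with the length trend removed and the block, 0.27 in the paired fit and -0.56 to 0.37 without 1 or 2 libraries. Removing the length trend gave -0.65 for Tnr, -0.0118 for Ncan, -0.041 for Col1a2 and -0.12 for Itga4, and with the block -0.72 for Tnr and -0.065 for Itga4. Without 1 library Tnr ranged from -0.15 to 0.73. With YTHDF2, Tnr ranged from -0.54 to 0.040 and Itga4 from -0.59 to 0.053. With YTHDF3, Bcan became 0.28 with library size alone, 0.064 with no filter, 0.023 with only the groups compared and -0.60 to 0.41 without 1 library. Removing the length trend gave -0.00392 for Fn1, -0.46 for Tnr and -0.11 for Itga4, and with the block -0.035, -0.48 and -0.13. Without 1 library Tnr ranged from -0.045 to 0.41, Col1a1 from -0.12 to 1.61, Col1a2 from -0.25 to 1.96 and Col3a1 from -0.28 to 1.84. The causes of these changes were not tested beyond what each setting itself alters.

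The replicate block changed other calls of named genes in both directions, and same-numbered libraries did not deviate together between Input and YTHDF1 (r = 0.09, -0.27 and -0.33) or YTHDF2 (r = 0.19, -0.33 and -0.32), so their numbers are not taken as pairs. Input replicate 3 did deviate together with replicate 2 of the YTHDF1 RIP (r = 0.47) and of the YTHDF2 RIP (r = 0.57). With low totals in the YTHDF2 RIP, depth limits the genes at under 1 CPM in Input, such as Col28a1. The setting without both Input and YTHDF3 RIP replicate 1 was chosen after seeing the data.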
